A study of Homo sapiens with 6 samples.

Results

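Solute carriers are membrane proteins that move sugars, amino acids, ions, vitamins and organic acids into and out of cells and organelles. The mRNAs described here are those of families SLC1 to SLC24, picked by gene name alone (SLC, a family number from 1 to 24, the letter A and a number). There were 181 such genes among the 58302 genes listed in both deposited tables. The families were put forward after earlier results of these tables were known, so the list as a whole is described by counts and medians and is not tested.

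The study recovered RNA bound by PABPC4 and by PABPC1, both poly(A)-binding proteins of the cytoplasm, from HepG2, a human hepatocellular carcinoma line. The series title concerns the induction of PABPC4 in MYC-driven liver tumours. RNA immunoprecipitation (RIP) pulls a protein out of a lysate with an antibody and sequences the RNA that comes with it. Per the labels there were 2 PABPC1 RIP libraries from cells overexpressing PABPC1 and 2 PABPC4 RIP libraries from cells overexpressing PABPC4. There were also 2 libraries made with a control rabbit IgG antibody, 1 from each overexpressing population. No group of cells without overexpression is among these samples, all cells are of 1 line, and input RNA was not analysed here, so a RIP level also reflects how much of an mRNA the cells held. Whether replicates are separate cultures is not stated in the labels, and p-values computed between libraries therefore reflect only how far these libraries differ, which may be technical spread. Comparisons with IgG treat the 2 IgG libraries as 1 group, although they come from different populations. The spread between them therefore also holds any difference between those populations. Part of the IgG behind each fold comes from cells overexpressing the other protein.

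Cytoplasmic poly(A)-binding proteins coat the poly(A) tail of almost every mRNA, where they take part in translation initiation and in the control of mRNA decay. PABPC1 is the abundant family member in most cells, and PABPC4 is a relative first described in activated T cells. Solute carrier mRNAs are translated at the endoplasmic reticulum, and many of these carriers set how fast a tumour cell can take up glucose, glutamine, cystine or essential amino acids. In hepatocytes, other members of the same families take up bile acids and citrate from the blood.

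The deposited tables hold only folds and p-values, from which whole reads per library were recovered. Libraries are called A and B within an antibody, A having the larger total, because nothing ties them to the replicate numbers. PABPC1 libraries totalled 289217 and 277552 reads, PABPC4 libraries 850190 and 841327, and IgG libraries 133030 and 94235. Mitochondrial rRNA took 38.3% of PABPC1 reads, 16.3% of PABPC4 reads and 55.4% of IgG reads. On library totals, 81.1% of genes with at least 20 reads were above 1-fold over IgG with PABPC1 and 89.2% with PABPC4. A lower rRNA share and a gain of most mRNAs over IgG cannot be told apart in these values. Scaling that centres on the typical gene removes both. Hepatocyte markers were read in 13 of 13 cases, led by the lipoprotein gene APOB with 8208 PABPC4 reads and by albumin (ALB) with 2314, while transthyretin (TTR) had 3. Markers of blood cells summed to 3503 and 3608 RPM (reads scaled by the library total, the same scale as CPM) in IgG, 1255 and 1402 in PABPC1, and 728 and 582 in PABPC4, and none of the 6 was at 0. Fibroblast markers summed to 143 and 106 RPM in IgG, 38.0 and 39.6 in PABPC1, and 17.6 and 9.51 in PABPC4, again with none of the 4 at 0.

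Of the 181 solute carrier genes, 120 had a read in at least 1 library and 61 had none. Together they took 1313 reads in PABPC1, 4743 in PABPC4 and 357 in IgG. As shares of all reads these are 0.232% in PABPC1 (exact 95% interval 0.219% to 0.245%), 0.280% in PABPC4 (0.272% to 0.288%) and 0.157% in IgG (0.141% to 0.174%). The intervals cover counting error only, since reads without molecular identifiers are not independent molecules. Per library the sums were 2324 and 2309 RPM in PABPC1, 2751 and 2857 in PABPC4, and 1601 and 1486 in IgG, with no overlap between antibodies. Over reads of nuclear-encoded genes alone, the order changed, to 0.404% in PABPC1, 0.349% in PABPC4 and 0.382% in IgG.

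Depth limited most members. In PABPC4 libraries 50 members had at least 20 summed reads and 16 had at least 100, in PABPC1 libraries 22 had at least 20, and in IgG libraries 12 had at least 10. The essential amino acid carrier SLC7A5 was the only one with at least 20 IgG reads. No IgG read was found for 47 members that had a RIP read, and 4 members (SLC6A19, SLC15A3, SLC16A7 and SLC4A8) had IgG reads only. A count of 0 allows up to 3 reads, which is 5.29 RPM over the PABPC1 libraries, 1.77 RPM over the PABPC4 libraries and 13.2 RPM over the IgG libraries.

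The families differed in how many of their genes were read. All members had a read in SLC3 (2 of 2), SLC11 (2 of 2), SLC19 (3 of 3) and SLC20 (2 of 2), which carry heavy chains of amino acid exchangers, metals, folate and thiamine, and phosphate. Facilitative sugar carriers of SLC2 were read in 12 of 14 cases and cation-chloride cotransporters of SLC12 in 7 of 9. The large organic ion family SLC22 was read in 11 of 23, the neurotransmitter, amino acid and osmolyte family SLC6 in 11 of 19, and the vesicular amine family SLC18 in 1 of 3. Members without a read include kidney organic anion carriers (SLC22A6, SLC22A8), the intestinal bile acid carrier SLC10A2 and the dopamine carrier SLC6A3.

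**Figure D1:**
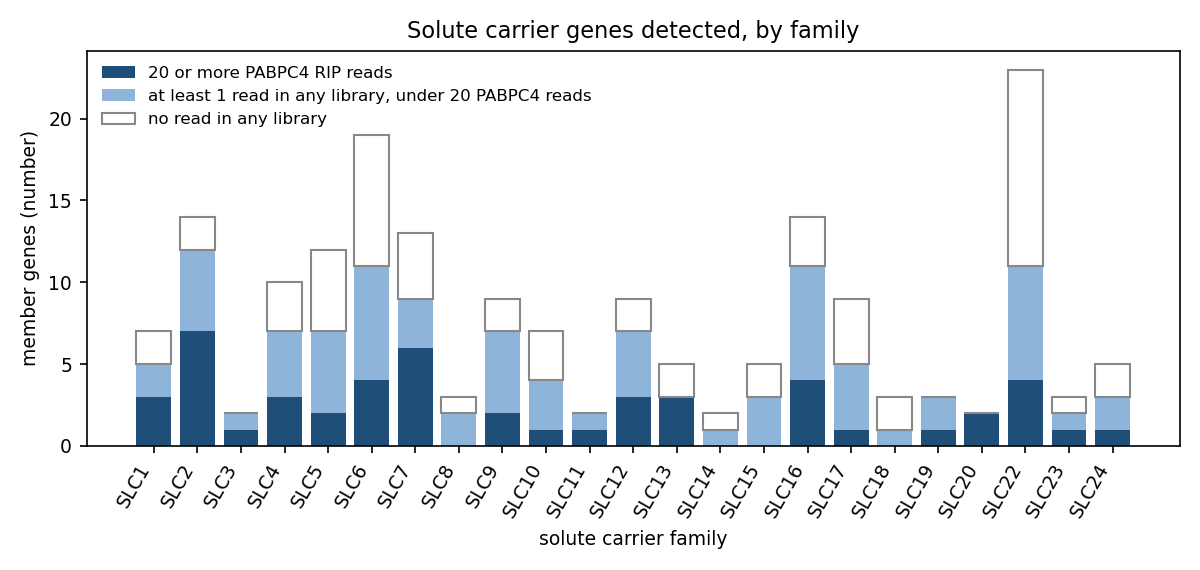
Number of solute carrier genes in each family (bars, linear axis from 0), split into genes with 20 or more PABPC4 RIP reads, genes with a read in any library but fewer PABPC4 reads, and genes with no read. SLC22 has the most genes (23) and the most without a read (12), and SLC2 has the most with 20 or more PABPC4 reads (7).

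Reads were concentrated in few members: the 20 most read held 4215 of 6413 reads, or 65.7%. They include carriers of glucose (SLC2A3, SLC2A1), vitamin C (SLC23A2), biotin and pantothenate (SLC5A6), citrate (SLC13A5), and lactate (SLC16A1, SLC16A3). Amino acid carriers among them were SLC7A1, SLC7A2, SLC7A5, SLC7A11 and the glutamate carrier SLC1A2, beside the taurine carrier SLC6A6. Ion carriers were SLC4A7, SLC12A4, SLC20A1, SLC20A2 and SLC24A1, and the others were the vesicular nucleotide carrier SLC17A9 and SLC22A23.

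Per kilobase of exon the order in PABPC4 libraries began with the neuronal-type glucose carrier SLC2A3 at 30.1 ± 3.07 RPKM (RPM per kilobase, SD, n = 2). The vitamin C carrier SLC23A2 followed at 23.5 ± 2.84 and the arginine carrier SLC7A2 at 19.1 ± 1.23. SLC2A3 did not overlap SLC23A2 (27.9 and 32.2 against 21.4 and 25.5 RPKM), and SLC23A2 did not overlap SLC7A2 (19.9 and 18.2). Below them the levels ran together: SLC7A5 at 17.6 ± 1.01, SLC16A1 at 17.2 ± 0.659, SLC13A5 at 17.0 ± 0.126 and SLC5A6 at 16.9 ± 0.125 RPKM differed by less than the spread of SLC7A5. The phosphate carrier SLC20A2 was next at 11.9 ± 0.592 RPKM. In IgG libraries the order was another one, with SLC7A5 at 21.3 ± 7.77 RPKM above SLC2A3 at 9.80 ± 1.68.

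**Figure D2:**
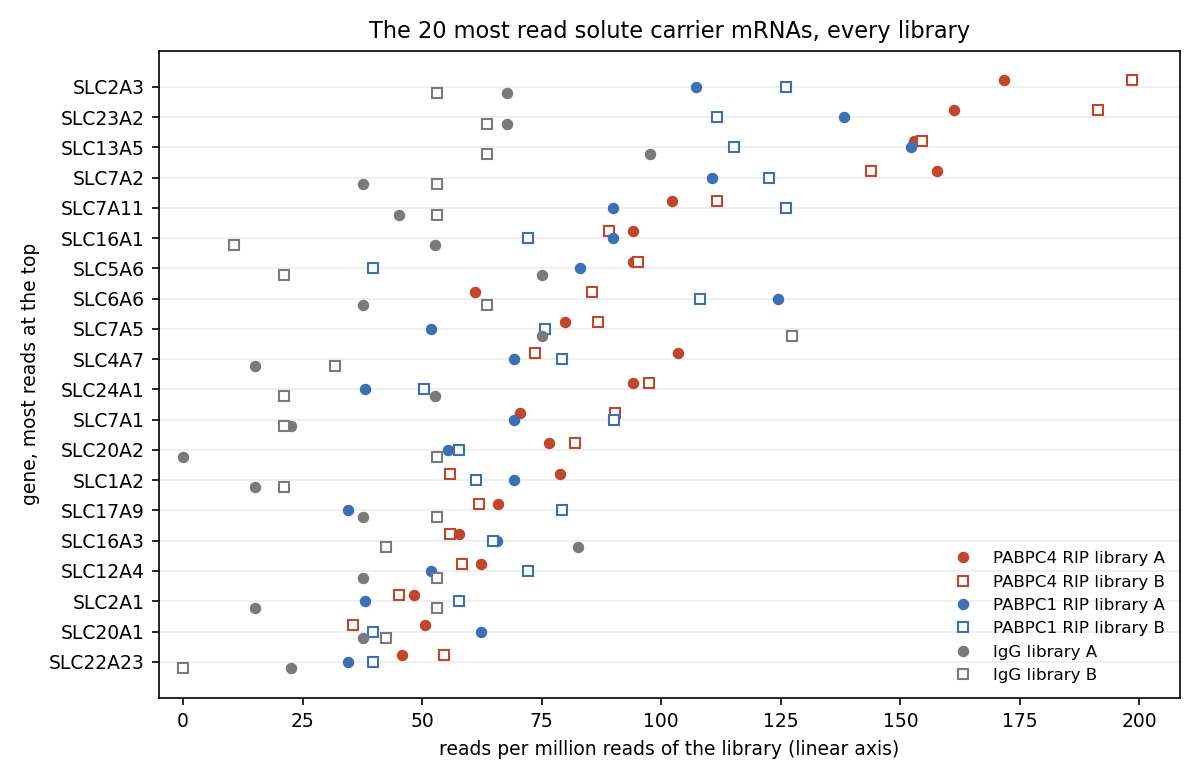
RPM (linear axis) for the 20 most read solute carrier mRNAs, 1 point for each of the 6 libraries (PABPC4 red, PABPC1 blue, IgG grey, library A filled, library B open). For SLC2A3 the IgG libraries sit at 67.7 and 53.1, PABPC1 at 107 and 126, and PABPC4 at 172 and 198, while for SLC7A5 IgG library B is the highest point, at 127.

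In the comparison of PABPC1 RIP with IgG, 0 of the 105 members with a p-value were called higher at an adjusted p under 0.05 in the authors' deposited table, against 1.34% of all genes, and 0 were called lower, against 0.194%. At an unadjusted p under 0.05, 9 members were higher, against 5.98% of all genes, and 1 was lower, against 1.05%. Among members with at least 20 PABPC1 reads the count was 0 of 22, against 6.48% of genes with that many, and with at least 50 it was 0 of 6, against 17.1%. Fisher's exact test on the recovered reads called 0 members, with 10 higher and 1 lower at an unadjusted p under 0.05. Limma voom called 0 of 47 fitted members higher (0.351% of fitted genes) and 0 lower (0.513%), and at an unadjusted p under 0.05 it had 2 higher (6.2%) and 3 lower (6.7%). In both PABPC1 libraries, 12 of the 20 most read members were above both IgG libraries in RPM. This held for 20 of all 47 fitted members, against 43.8% of fitted genes.

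The lowest p-values in that comparison belonged to the cationic amino acid carriers. SLC7A2, which takes up arginine, lysine and ornithine in liver, had 32 and 34 PABPC1 reads against 5 and 5 in IgG. The authors' deposited table gives it 2.57-fold, with a deposited adjusted p of 0.176. SLC7A1, the widely expressed carrier of the same substrates, had 20 and 25 reads against 3 and 2, and 3.63-fold (adjusted p of 0.217) in the authors' deposited table. Both genes were higher in both PABPC1 libraries than in both IgG libraries, and neither passed the threshold. The taurine carrier SLC6A6, with 36 and 30 reads against 5 and 6, was listed at 2.29-fold by the authors' deposited table (adjusted p of 0.268).

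In the comparison of PABPC4 RIP with IgG, 4 of 114 members were called higher at an adjusted p under 0.05 in the authors' deposited table, against 5.54% of all genes. They were SLC2A3, SLC7A2, SLC23A2 and SLC4A7, and 0 members were called lower, against 0.9%. At an unadjusted p under 0.05, 13 were higher (11.7% of all genes) and 5 lower (1.85%). Calls depend on depth, and the share called lay below that of all genes in 3 of 4 depth classes. Of members with at least 20 PABPC4 reads 4 of 50 were called, against 14% of all genes with that many, and with at least 50 it was 4 of 27, against 23%. With at least 100 reads the count was 4 of 16, against 40.8%, and with at least 200 it was 3 of 4, against 70.8%. Both PABPC4 libraries were above both IgG libraries in RPM for 27 of 47 fitted members, against 73.3% of fitted genes.

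SLC2A3 encodes GLUT3, a glucose carrier of high affinity. It had 146 and 167 PABPC4 reads against 9 and 5 in IgG, or 172 and 198 RPM against 67.7 and 53.1. Both PABPC4 libraries were above both IgG libraries, and above both PABPC1 libraries, as in 57.4% of fitted genes. The authors' deposited table gives 3.07-fold with a deposited adjusted p of 0.00109, and the exact 95% interval of the ratio of summed reads was 1.76 to 5.56. The gene lies on chromosome 12 (7919230 to 7936187, RefSeq GRCh38.p14) near its close copy SLC2A14, which had 26 PABPC4 reads. The sources used here do not say how reads matching both copies were assigned, so the split between them is uncertain.

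SLC23A2 encodes SVCT2, a sodium-coupled carrier of vitamin C. Its 137 and 161 PABPC4 reads stood against 9 and 6 in IgG, or 161 and 191 RPM against 67.7 and 63.7. In the authors' deposited table it was 2.68-fold higher (adjusted p of 0.00402), with an exact interval of 1.59 to 4.83. It lies on chromosome 20 (4852358 to 5010313). SLC7A2 had 134 and 121 PABPC4 reads against 5 and 5, or 158 and 144 RPM against 37.6 and 53.1. For it the authors' deposited table lists 3.32-fold (adjusted p of 0.00206), and the interval was 1.83 to 7.23. In both genes all PABPC4 libraries lay above all IgG libraries.

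SLC4A7 encodes NBCn1, which brings bicarbonate into the cell with sodium. It had 88 and 62 PABPC4 reads against 2 and 3 in IgG, or 104 and 73.7 RPM against 15.0 and 31.8. The authors' deposited table lists it at 3.77-fold (adjusted p of 0.0250), and with so few IgG reads the exact interval was wide, at 1.69 to 12.6. The gene lies on chromosome 3 (27372723 to 27484384).

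These 4 calls rest on the IgG libraries and on scaling by library totals. Without IgG library A, 0 of the 4 passed, at 3.49-fold for SLC2A3, 2.84 for SLC7A2, 2.77 for SLC23A2 and 2.78 for SLC4A7, and without IgG library B only SLC7A2 passed, at 4.01-fold, while SLC2A3 was at 2.73, SLC23A2 at 2.60 and SLC4A7 at 5.87. Over all genes, 1381 of 21455 were called in either direction with both IgG libraries. Without IgG library A this was 505 of 20938, and without IgG library B it was 762 of 20939. Without PABPC4 library A, SLC4A7 no longer passed, at 3.14-fold. Under median-of-ratios scaling, which sets the typical gene near 1 and moves the median log2 fold of all genes with at least 20 reads from 1.04 to 0.10, 0 of the 4 passed and their folds were 1.59 for SLC2A3, 1.74 for SLC7A2, 1.40 for SLC23A2 and 2.0 for SLC4A7. In limma voom with that scaling, which uses the spread between libraries, 0 of 47 fitted members were higher than IgG (1.69% of fitted genes). At an unadjusted p under 0.05 that fit had 1 higher (7.81%) and 5 lower (9.49%).

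**Figure D3:**
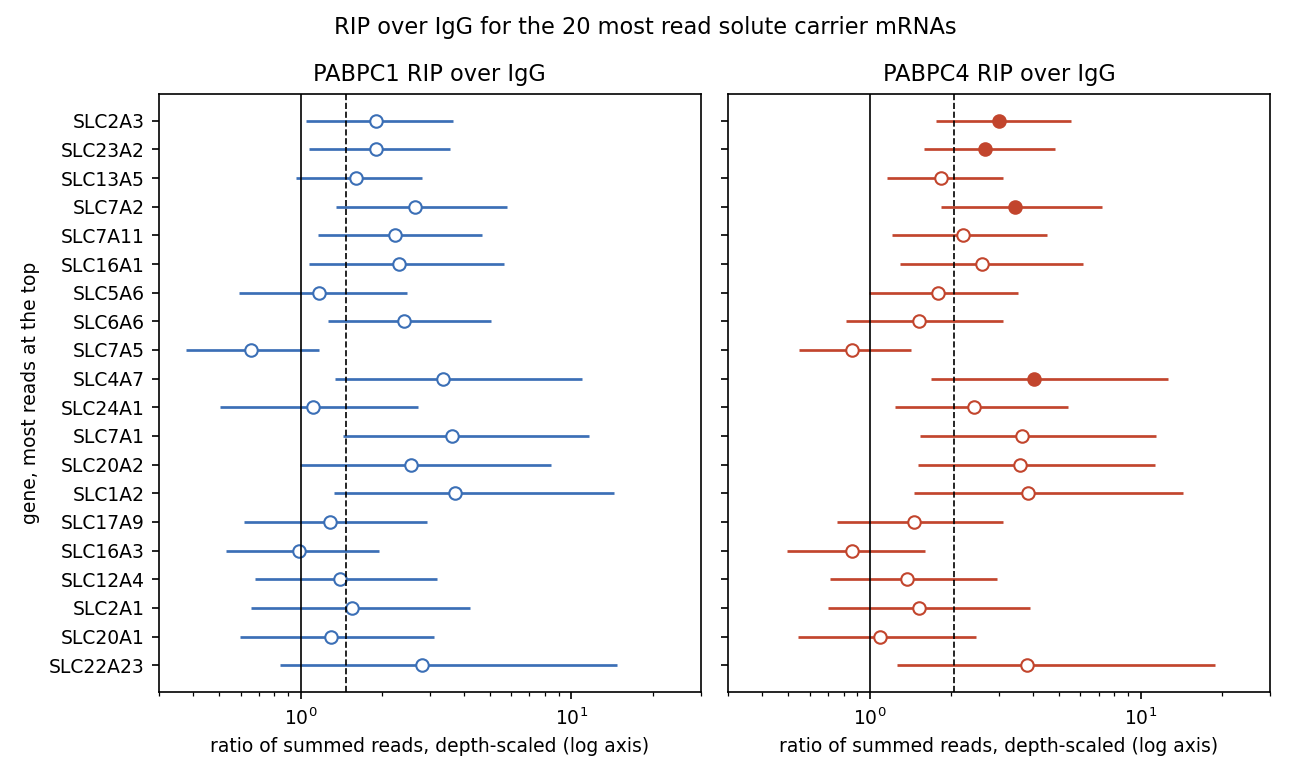
Ratio of summed reads, RIP over IgG, each scaled by its total (log axis), with exact 95% intervals for counting error, for the 20 most read solute carrier mRNAs. Filled points are called at an adjusted p under 0.05 in the authors' deposited table, the solid line is a ratio of 1, and the dashed line is the median deposited fold of all genes with at least 20 reads (1.47 for PABPC1, 2.05 for PABPC4). Of the 20, 4 are filled in the PABPC4 panel and 0 in the PABPC1 panel.

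Next to the called genes stood a group of ion and amino acid carriers with few IgG reads. SLC7A1 had 60 and 76 PABPC4 reads and 3.67-fold in the authors' deposited table (adjusted p of 0.0536). The phosphate carrier SLC20A2 had 65 and 69 reads against 0 and 5 in IgG and 2.98-fold in the authors' deposited table (adjusted p of 0.0602). IgG library B held all 5 IgG reads, so no IgG read was left without it, and without IgG library A the fold was 1.49. For the glutamate carrier SLC1A2, best known from astrocytes, 67 and 47 reads stood against 2 and 2, at 3.70-fold in the authors' deposited table (adjusted p of 0.0897). These 3 genes and the lactate carrier SLC16A1 were called when Fisher's exact test replaced the chi-square test, which brought the count to 8 of 114, or 7.02%, against 7.28% of all genes called higher by that test.

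Over the 51 members with at least 20 reads, the median log2 fold of PABPC4 over IgG in the authors' deposited table was 0.97, beside 1.04 for 8797 genes of the same minimum. In the authors' deposited table for PABPC1 the medians were 0.70 for 26 members and 0.56 for 4511 genes. Both comparisons share the same pooled IgG libraries, so their values are not independent. Above 1-fold were 46 of 51 members in the PABPC4 comparison, beside 89.2% of all genes, and 23 of 26 in the PABPC1 comparison, beside 81.1%. Under median-of-ratios scaling the members' medians were 0.24 for PABPC1, beside 0.09 for all genes, and 0.00 for PABPC4, beside 0.10.

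By substrate class, called members were spread thinly. Counts here are out of members read in any library, while 5.54% of all genes with a p-value were called higher with PABPC4. Of SLC2 sugar carriers 1 of 12 read was called higher with PABPC4 (SLC2A3). Among carriers of inorganic ions the count was 1 of 28 (SLC4A7), among carriers of amino acids in SLC1, SLC3 and SLC7 it was 1 of 16 (SLC7A2), and among carriers of vitamins, urea and peptides it was 1 of 9 (SLC23A2). No call was made among 11 monocarboxylate carriers of SLC16, 24 carriers of bile acids, carboxylates and organic ions, or 11 members of SLC6. With at least 20 reads, 11 of 11 inorganic ion carriers and 9 of 9 bile acid and organic ion carriers were above 1-fold in the authors' deposited table for PABPC4, while amino acid carriers were above it in 7 of 10 cases and monocarboxylate carriers in 2 of 4. Of all genes with that many reads 89.2% were above 1-fold, and differences between the classes were not tested.

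The lactate carriers lay apart from each other. SLC16A1 (MCT1) had 80 and 75 PABPC4 reads against 7 and 1 in IgG, and 2.90-fold in the authors' deposited table (adjusted p of 0.107). Its fold was 8.61 without IgG library A and 1.74 without IgG library B. SLC16A3 (MCT4), the low-affinity exporter of glycolytic cells, had 49 and 47 against 11 and 4, and 0.906-fold in the authors' deposited table (adjusted p of 1). The glucose carrier SLC2A1 (GLUT1) had 41 and 38 reads against 2 and 5, at 1.37-fold in the authors' deposited table (adjusted p of 1), and 0.880 without IgG library A or 3.1 without IgG library B. In RPM, SLC16A3 and SLC2A1 both overlapped IgG, the first with 57.6 and 55.9 against 82.7 and 42.4, the other with 48.2 and 45.2 against 15.0 and 53.1. The difference between SLC16A1 and SLC16A3 was not tested.

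The pair that forms the large neutral amino acid exchanger had folds near or below 1 over IgG. SLC7A5, its transport subunit LAT1, had 68 and 73 PABPC4 reads against 10 and 12 in IgG, or 80.0 and 86.8 RPM against 75.2 and 127. The authors' deposited table lists it at 0.823-fold (adjusted p of 1). SLC3A2, the heavy chain that brings LAT1 to the surface, had 49 and 29 reads against 5 and 5, at 1.02-fold in the authors' deposited table (adjusted p of 1). In limma voom, which centres on the typical gene, SLC7A5 was lower with PABPC4 than with IgG (log2 difference -1.19, SE 0.328, adjusted p = 0.0294), the only member called lower of 47 (2.19% of fitted genes). On library totals its fold depended on 1 library, at 1.11 without IgG library B and 0.655 without IgG library A. For SLC3A2 the limma fit gave -1.03 (SE 0.471, limma adjusted p = 0.240).

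The cystine carrier SLC7A11, which pairs with the same heavy chain and feeds glutathione synthesis, had 87 and 94 PABPC4 reads against 6 and 5 in IgG. The authors' deposited table has it at 2.18-fold (adjusted p of 0.135). Of the 10 carriers linked to MYC and growth in textbooks (SLC1A5, SLC2A1, SLC3A2, SLC7A1, SLC7A5, SLC7A6, SLC7A11, SLC16A1, SLC19A1, SLC20A1), 10 were read and 0 were called in either of the authors' deposited tables. Of all genes 1.34% were called higher with PABPC1 and 5.54% with PABPC4, and 0.194% and 0.9% were called lower. Calls depend on depth, and of all genes with at least 20 PABPC4 reads 14% were called higher, and with at least 100 it was 40.8%. SLC7A11, SLC16A1, SLC7A5 and SLC7A1 had 181, 155, 141 and 136 PABPC4 reads. The list was not tested against these shares. In limma voom 1 of its 9 fitted genes, SLC7A5, was lower with PABPC4 than with IgG, against 2.19% of fitted genes. In the authors' deposited table the median log2 fold of these carriers over IgG was 0.49 with PABPC1 (7 genes with at least 20 reads) and 0.28 with PABPC4 (10 genes), beside 0.56 and 1.04 for all genes. The glutamine carrier SLC1A5 had 21 and 23 PABPC4 reads against 1 and 4 in IgG, at 1.04-fold in the authors' deposited table (adjusted p of 1). Amino acid carriers that are targets of the stress factor ATF4 overlap this list in 5 of 8 genes. Of the 8, 7 were read and 0 were called in either of the authors' deposited tables, beside the same shares of all genes. SLC7A3, a cationic amino acid carrier of that list, had no read.

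Carriers that define the hepatocyte were mostly near 0. Of 12 liver carriers 9 had a read, but only the citrate carrier SLC13A5 and SLC7A2 had more than 13 reads in PABPC4. SLC13A5 had 130 and 130 PABPC4 reads, 44 and 32 in PABPC1, and 13 and 6 in IgG. Its PABPC4 libraries, at 153 and 155 RPM, were above both IgG libraries, at 97.7 and 63.7, and the authors' deposited table lists 1.90-fold (adjusted p of 0.135). The bile acid carrier SLC10A1 (NTCP) had 11 and 2 PABPC4 reads and the organic anion carrier SLC22A9 had 6 and 7. The glucose carrier of normal hepatocytes, SLC2A2 (GLUT2), had 2 and 2. None of these 3 had an IgG read, so no fold is given, and SLC22A7, SLC17A3 and SLC17A4 had no read in any library.

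Carriers of blood cells fell on both sides. SLC4A1, the anion exchanger band 3 of erythrocytes, had 1 and 3 PABPC4 reads, 6 and 4 PABPC1 reads, and 3 and 1 IgG reads. That is 1.18 and 3.57 RPM with PABPC4 against 22.6 and 10.6 with IgG, without overlap, and 0.143-fold in the authors' deposited table (adjusted p of 0.0744). SLC11A1, the metal carrier of macrophage phagosomes, had 5 and 4 PABPC4 reads against 5 and 0 in IgG, at 0.282-fold in the authors' deposited table (adjusted p of 0.189), and its libraries overlapped. SLC15A4, an endolysosomal histidine and peptide carrier of immune cells outside that list, had 2 and 6 reads against 4 and 1, at 0.233-fold in the authors' deposited table (adjusted p of 0.128).

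The sodium-calcium exchanger SLC8A1 had 2 and 0 PABPC4 reads against 3 and 0 in IgG, at 0.103-fold in the authors' deposited table (adjusted p of 0.103). SLC15A4 and SLC8A1 are named here because they, with SLC4A1, SLC11A1 and SLC6A12, are the 5 members lower with PABPC4 than with IgG at an unadjusted p under 0.05, and so were chosen after their values were seen. The first 4 of these and SLC7A5 were called lower under median-of-ratios scaling (5 of 114, or 4.39%, against 2.03% of all genes) and under totals over nuclear-encoded genes. The sum of the blood cell markers moved the same way, at 728 and 582 RPM with PABPC4 against 3503 and 3608 with IgG. HBB alone held 503 of the 806 IgG reads in that sum. Among the 6 markers, 4 were called lower in the authors' deposited table, against 0.9% of all genes. They were HBB (0.136-fold), HBA2 (0.128-fold), HBA1 (0.189-fold) and PTPRC (0.0974-fold). CD74 and LYZ were not called in that table, at 1.06-fold and 1.02-fold, beside a median of 2.05-fold for all genes with at least 20 reads. In limma voom, which centres on the typical gene, all 6 markers were below 0 with PABPC4 against IgG. Of these 6, 5 were called lower, against 2.19% of fitted genes. The part of blood cell RNA in the values of SLC4A1, SLC11A1, SLC15A4 and SLC8A1 was not tested. SLC2A3 is also on the blood cell list, and its fold goes the other way from that of SLC4A1. Of the other 4 genes of that list, SLC16A3 is given above, SLC7A7 had 6 PABPC4 reads and 1 IgG read, SLC14A1 had 2 PABPC1 reads only, and SLC15A3 had 1 IgG read only.

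**Figure D4:**
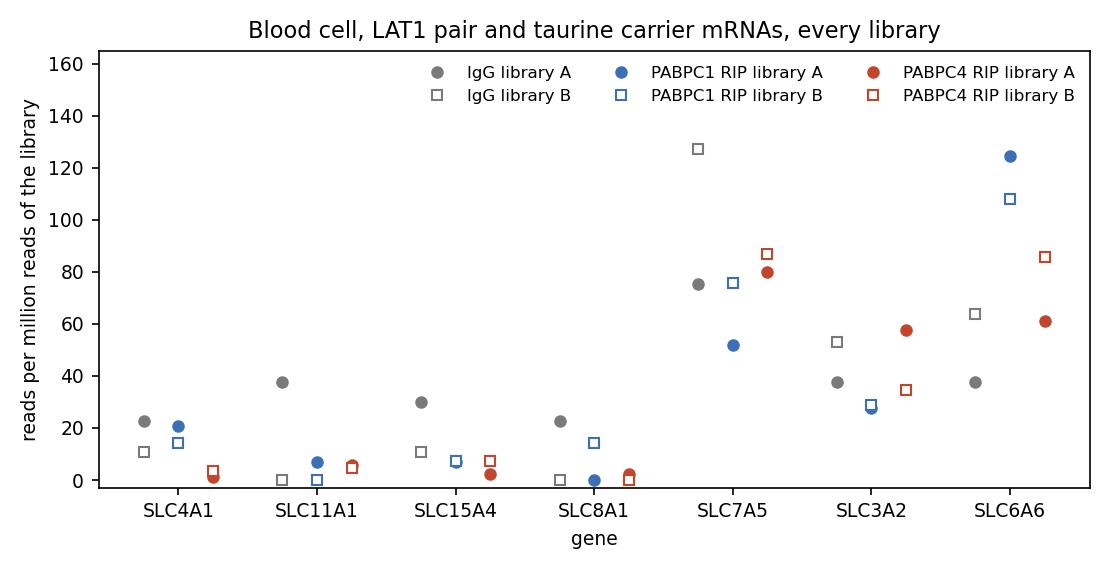
RPM (linear axis) in each of the 6 libraries for 4 carriers lower with PABPC4 than IgG at an unadjusted p, the LAT1 pair SLC7A5 and SLC3A2, and the taurine carrier SLC6A6 (IgG grey, PABPC1 blue, PABPC4 red, library A filled, library B open). SLC4A1 lies at 1.18 and 3.57 with PABPC4 and at 22.6 and 10.6 with IgG, and SLC6A6 lies at 124 and 108 with PABPC1 and at 61.2 and 85.6 with PABPC4.

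Setting PABPC4 RIP directly against PABPC1 RIP leaves IgG off both sides, although the IgG libraries help to estimate the spread. Each RIP came from cells overexpressing its own target, so the antibody and the overexpressed protein cannot be told apart in it. It was fitted with limma voom on recovered reads for the 7988 genes that reached 10 reads in 2 or more libraries, under median-of-ratios scaling. Only 47 of 181 members passed that filter, so nothing is said of the others. Of the 47, 1 was lower with PABPC4 at an adjusted p under 0.05 (2.28% of fitted genes) and 0 were higher (2.19%). At an unadjusted p under 0.05, 5 were lower (8.59%) and 0 higher (7.79%). Estimates were below 0 for 30 of 47, or 63.8%, beside 52.1% of all fitted genes, and the median was -0.23 beside -0.03.

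The lower member was SLC6A6, the carrier that concentrates taurine in cells. It had 36 and 30 PABPC1 reads, 52 and 72 PABPC4 reads, and 5 and 6 IgG reads. In RPM this is 124 and 108 with PABPC1, 61.2 and 85.6 with PABPC4, and 37.6 and 63.7 with IgG. Both PABPC1 libraries were above both PABPC4 libraries, which holds for 5.77% of fitted genes, and PABPC4 library A overlapped IgG. The log2 difference of PABPC4 from PABPC1 was -1.16 (SE 0.243, limma adjusted p = 0.00207). In the authors' deposited tables the gene stands at 2.29-fold over IgG with PABPC1 and 1.45-fold with PABPC4 (adjusted p of 0.866). The gene lies on chromosome 3 (14402576 to 14489349, RefSeq GRCh38.p14).

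This call was lost without either PABPC1 library, at a log2 difference of -1.0 without library A and -1.33 without library B. Those fits had 6.45 and 6.47 prior degrees of freedom, against 33.7 with all libraries, so calls of any gene were harder to reach. The SLC6A6 call was also lost when libraries were scaled by their totals, at -0.69 (limma adjusted p = 0.0556). Under that scaling the median of all fitted genes was 0.45. By limma adjusted p the call held under another scaling (TMM, 0.00205) and with a filter of 20 reads in 2 libraries (0.000169). It also held with only the 4 RIP libraries (0.000114) and with no filter (0.0259). The log2 difference was -0.86 without PABPC4 library A and -1.35 without PABPC4 library B.

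The other 4 members lower at an unadjusted p were SLC16A3 at -0.70 (SE 0.289), SLC20A1 at -0.72 (SE 0.335), SLC7A11 at -0.49 (SE 0.227) and SLC16A6 at -0.96 (SE 0.425) on the log2 scale, with limma adjusted p-values of 0.189, 0.262, 0.265 and 0.230. SLC16A3 had 65.7 and 64.9 RPM with PABPC1 and 57.6 and 55.9 with PABPC4, without overlap. SLC20A1, a phosphate carrier and retrovirus receptor, had 62.2 and 39.6 against 50.6 and 35.7, with overlap. By class, 8 of 10 fitted amino acid carriers of SLC1, SLC3 and SLC7, 3 of 4 fitted members of SLC6 and 3 of 4 of SLC16 had estimates below 0. Among inorganic ion carriers this was 5 of 11.

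The 4 genes called against IgG with PABPC4 were not called between the poly(A)-binding proteins. The limma log2 differences of PABPC4 from PABPC1 were 0.18 for SLC2A3 (SE 0.209, adjusted p = 0.741), 0.01 for SLC23A2 (SE 0.210, adjusted p = 0.985), -0.12 for SLC7A2 (SE 0.211, adjusted p = 0.841) and -0.26 for SLC4A7 (SE 0.273, adjusted p = 0.706). The highest estimate among the 20 most read members was that of SLC24A1, a sodium, calcium and potassium exchanger known from rod photoreceptors, with 38.0 and 50.4 RPM in PABPC1 and 94.1 and 97.5 in PABPC4. Its log2 difference was 0.60 (SE 0.312, limma adjusted p = 0.335). With scaling by library totals, SLC24A1 and SLC2A3 were called higher with PABPC4 (2 of 47, or 4.26%, against 13.9% of fitted genes), and 0 members lower (0.676%).

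**Figure D5:**
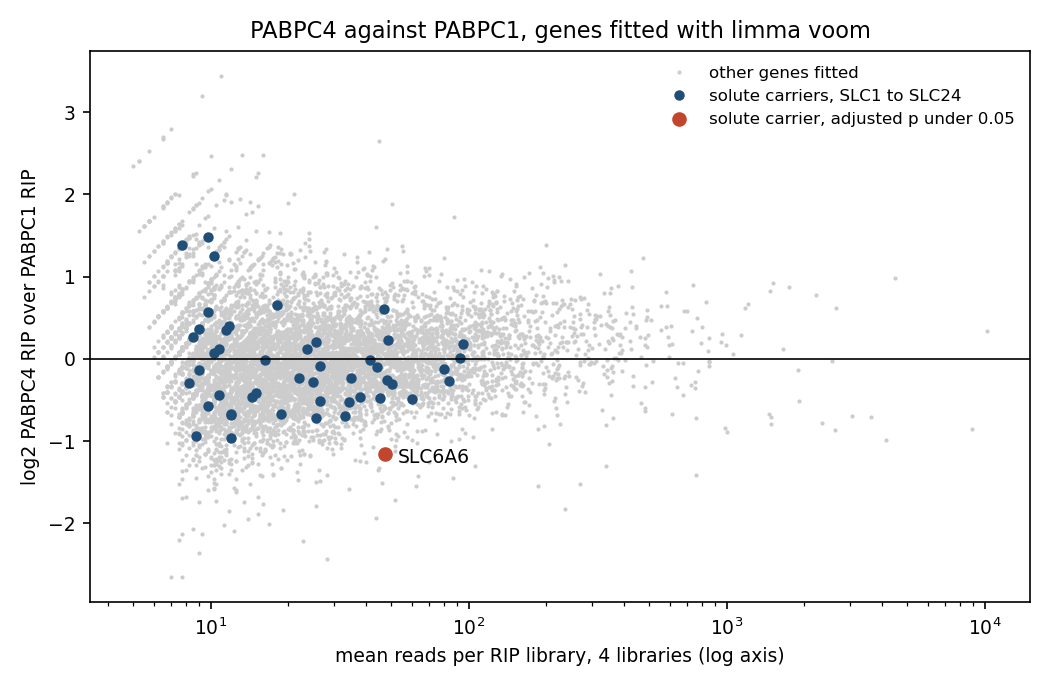
Log2 difference of PABPC4 RIP from PABPC1 RIP (limma voom, median-of-ratios scaling) against the mean reads per RIP library (log axis), for fitted genes (grey) and the 47 fitted solute carriers (blue, red where the adjusted p is under 0.05). SLC6A6, at -1.16, is the 1 red point, and the other solute carriers lie between -0.96 and 1.48.

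Proteins that partner with carriers were compared with the same tables. Of 21 partner genes 19 were read, and the authors' deposited tables called 2 of them higher with PABPC1. This stands against 1.34% of all genes, 6.48% of those with at least 20 PABPC1 reads and 17.1% of those with at least 50. The 2 had 149 and 76 such reads. With PABPC4 they called 5, against 5.54% of all genes and 14% of those with at least 20 PABPC4 reads. The 5 had 146 to 609 PABPC4 reads, and of all genes with at least 100 such reads 40.8% were called higher. BSG, basigin, the chaperone of the lactate carriers, had 75 and 74 PABPC1 reads, 177 and 214 PABPC4 reads, and 15 and 13 IgG reads. In the authors' deposited tables it was 2.10-fold higher with PABPC1 (adjusted p of 0.0205) and 1.84-fold higher with PABPC4 (adjusted p of 0.0252). NEDD4L, a ubiquitin ligase of membrane transporters, was 3.29-fold higher with PABPC1 (adjusted p of 0.0497) and 3.08-fold higher with PABPC4 (adjusted p of 0.0196) in the authors' deposited tables. The other 3 called with PABPC4 were the ion transport kinases STK39 and WNK1 and the membrane scaffold STOM. Between the RIPs, limma voom called 2 of 17 fitted partners lower with PABPC4 (2.28% of fitted genes) and 0 higher (2.19%). They were BSG (log2 difference -0.67, limma adjusted p = 0.00779) and LAPTM4B, a lysosomal partner of LAT1 (-1.36, limma adjusted p = 0.0415). LAPTM4B had only 9 and 11 PABPC1 reads and 18 and 15 PABPC4 reads.

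Other solute carriers gave similar counts. Of the mitochondrial carriers of SLC25, 42 of 48 were read, and 1 of 42 was called higher with PABPC4 in the authors' deposited table, with a median log2 fold of 0.36 over 21 genes. In families from SLC26 up, 86 of 105 were read. Of 85, 3 were called higher and 1 lower, with a median of 0.76 over 42 genes. SLC1 to SLC24 had 4 of 114 and a median of 0.97, and the differences between these sets were not tested. Of all genes 5.54% were called higher and 0.9% lower, with a median of 1.04 over those with at least 20 reads. With PABPC1, the authors' deposited table called higher 0 of 40 members of SLC25 and 1 of 77 from SLC26 up, against 1.34% of all genes. In the PABPC4 against PABPC1 fit the medians were -0.21 for SLC25 and -0.30 for the families from SLC26 up. They stand beside -0.23 for SLC1 to SLC24 and -0.03 for all fitted genes.

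Solute carrier genes that were read had more exon sequence than the median read gene. The exon length implied by the deposited folds had a median of 5441 nucleotides over read members (2030 to 21922). Over all read genes, which include genes of any depth, it was 3342. Among genes that passed the limma filter the medians lay closer, at 6939 over members and 5623 over all fitted genes. Longer members tended to have higher folds in the authors' deposited table for PABPC1 (Spearman's rho 0.47 across 26 members with at least 20 reads), while across 4511 genes rho was 0.05. In the authors' deposited table for PABPC4 rho was 0.21 across 51 members and 0.01 across 8797 genes. In the PABPC4 against PABPC1 fit it was -0.22 across the 47 fitted members and 0.01 across fitted genes. These are correlations across genes that share their libraries and are given as descriptions only.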

How the data were processed

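Per the submitters' processing notes, Bowtie2 2.4.1, STAR 2.7.10a and featureCounts 2.0.1 were used with builds GRCh38 and hg38; the role of each and strand handling are not given in the sources used here. The authors deposited a linear fold (ratio of RIP over pooled IgG), a p-value and a Benjamini-Hochberg adjusted p-value for 58302 genes per comparison, and 0 columns of single samples. The deposited p-value is that of a Yates-corrected chi-square test of reads summed per antibody, and the deposited fold is a ratio of mean RPKM with 0.005 added to IgG, as found from the values, so the p covers counting error only. Whole reads were recovered from these values for 22605 of 22607 genes with a read (465 of them as summed IgG reads only). The exceptions are MT-RNR1 and MT-RNR2. The recovery returned 5748 of 5748 sums on simulated tables.

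PABPC4 and PABPC1 RIP were compared with limma 3.58.1 (voom) in R 4.3.3. Residual degrees of freedom were 3, with 33.7 prior degrees of freedom. Symbols were matched to RefSeq GRCh38.p14 for 179 of 181 members. No mRNA or protein sequence was used here. The share of all genes called under each alternative was computed with the same rule. Alternatives were Fisher's test, other scalings and read filters, limma against IgG, and leaving out each library. Limma against IgG on library totals, a bound of 3 reads for genes with 0 IgG reads, and medians without each library were added after seeing the data. The members, gene lists and alternatives were chosen with earlier results of these data known. Named genes are members called in any comparison, the 20 most read, and the liver and blood cell lists, and any others are said to be chosen after their values were seen or belong to the other lists. The values of 1 liver carrier are not reported here.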

Additional observations from a re-analysis of the deposited data

Results flagged for a closer look

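The level of the taurine carrier mRNA SLC6A6 differed between the RIPs by a direct test, although it was called over IgG in neither of the authors' deposited tables: the log2 difference of PABPC4 from PABPC1 was -1.16 (limma adjusted p = 0.00207), with both PABPC1 libraries above both PABPC4 libraries in RPM. The call was lost without PABPC1 library A, at -1.0, without PABPC1 library B, at -1.33, and on library totals (limma adjusted p = 0.0556). By limma adjusted p it held under TMM scaling (0.00205) and with a filter of 20 reads in 2 libraries (0.000169). The call also held with only the 4 RIP libraries (0.000114) and with no filter (0.0259).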

How the results depend on the processing

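No paired analysis was possible because the deposited tables carry no replicate numbers, and the recovered libraries could not be tied to them. Calls of PABPC1 over IgG were 0 under the alternatives of its test and in limma voom with all libraries, while limma voom without PABPC4 library A, and likewise without library B, called 1 of 23 lower (4.35%, against 2.28% and 2.24% of fitted genes). For PABPC4 over IgG, Fisher's exact test called 8 members higher (7.02%, against 7.28% of all genes). Median-of-ratios scaling and totals over nuclear-encoded genes each called 0 higher and 5 lower (4.39%, against 2.03% and 2% of genes), limma voom 0 higher and 1 lower (2.13%, against 2.19%), limma voom with no filter on low counts 32 of 116 lower (27.6%, against 39.7%), and limma voom on library totals 13 higher (27.7%, against 28.7% of fitted genes). Without 1 library at a time, 0 to 5 were higher and 0 to 2 lower. Calls over all genes, in either direction, then ran from 505 of 20938 to 1296 of 19003, against 1381 of 21455 with all libraries. For PABPC4 against PABPC1, library totals gave 2 higher (4.26%, against 13.9% of fitted genes) and 0 lower, no filter on low counts gave 8 lower (6.9%, against 7.16%), and leaving out 1 library gave 0 to 1 lower. With no filter the median of all genes was -0.48 on the log2 scale, and the cause was not tested.

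The median log2 fold of members for PABPC1 was 1.04 with at least 50 reads, 0.34 over all members with reads on both sides, 0.24 under median-of-ratios scaling, 0.23 on nuclear totals and 0.68 to 0.92 without 1 library (0.85 without PABPC1 library B). For PABPC4 it was 0.83, 0.45, 0.0044, -0.017 and 0.95 to 1.06 in the same order, and 0.68 with members without IgG reads at a bound of 3 reads.

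Values that were not called could change direction. Under median-of-ratios scaling, PABPC1 over IgG crossed to 0.918-fold for SLC5A6, 0.849 for SLC24A1, 0.899 for SLC17A9, 0.747 for SLC16A3, 0.989 for SLC12A4 and 0.933 for SLC20A1, and PABPC4 over IgG to 0.986 for SLC13A5, 0.762 for SLC6A6, 0.739 for SLC17A9, 0.698 for SLC12A4, 0.730 for SLC2A1 and 0.563 for SLC20A1. On nuclear totals these were 0.913, 0.843, 0.886, 0.741, 0.975 and 0.923 for PABPC1 and 0.968, 0.746, 0.722, 0.682, 0.711 and 0.550 for PABPC4, with SLC5A6 at 0.988. On library totals the log2 difference of PABPC4 from PABPC1 turned positive, to 0.20 for SLC13A5, 0.36 for SLC7A2, 0.16 for SLC16A1, 0.39 for SLC7A5, 0.22 for SLC4A7, 0.45 for SLC20A2, 0.0017 for SLC1A2, 0.26 for SLC17A9 and 0.39 for SLC22A23. SLC23A2 was at -0.018 with a filter of 20 reads and -0.0044 with only the 4 RIP libraries, and SLC20A2 at 0.012 with no filter.

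Without 1 library at a time, the fold of PABPC1 over IgG ran from 0.815 to 2.88 for SLC5A6 (0.822 without PABPC1 library A), 0.990 to 1.55 for SLC20A1, 0.762 to 1.75 for SLC17A9, 0.901 to 3.18 for SLC2A1, 0.840 to 2.08 for SLC24A1 and 0.789 to 1.54 for SLC16A3. The fold of PABPC4 over IgG ran from 0.890 to 1.26 for SLC20A1, 0.686 to 1.34 for SLC16A3, 0.880 to 3.1 for SLC2A1 and 0.655 to 1.11 for SLC7A5. The log2 difference of PABPC4 from PABPC1 ran from -0.056 to 0.089 for SLC20A2 (0.013 without PABPC1 library A), -0.21 to 0.22 for SLC23A2 (-0.054 without PABPC4 library B), -0.37 to 0.79 for SLC5A6, -0.30 to 0.11 for SLC7A5 (0.017 without PABPC4 library A), -0.74 to 0.29 for SLC17A9, -0.16 to 0.094 for SLC22A23, -0.13 to 0.0015 for SLC7A2 and -0.45 to 0.038 for SLC4A7. Where 1 library was left of a group, that library was assumed to vary like the other groups.

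Of all members, 1 had at least 20 IgG reads, and the exact interval of PABPC4 over IgG for the most read carrier, SLC2A3, ran from 1.76 to 5.56.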
